A study of Mus musculus with 24 samples.

Results

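The salt-inducible kinases Sik1, Sik2 and Sik3, the CREB-regulated transcription coactivators Crtc1, Crtc2 and Crtc3, and the transcription factors Creb1, Crem and Atf1 form one signalling route to cAMP-responsive genes. They are described here in 4 regions of the mouse brain with and without Cdr1as. This neuronal circular RNA is rich in sites that bind miR-7, and it also has a site for miR-671. The 9 genes were chosen by name, with earlier results of these data known. Each matched 1 of the 37621 gene entries in all 24 count tables. The mice are C57BL/6, and the 2 genotypes are Cdr1as knockout and wild type. Cerebellum, cortex, hippocampus and olfactory bulb were dissected, with 3 libraries for each region and genotype, made from ribosome-depleted total RNA. The labels do not state age or sex, or whether a library is 1 animal or a pool. The labels name no Cre driver or tissue restriction of the knockout. In dissected tissue, fewer cells of a type and less RNA per cell cannot be told apart.

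As background, SIKs are relatives of the AMP-activated kinase that are switched on by the kinase Lkb1 (gene Stk11). They phosphorylate CRTC proteins, which then bind 14-3-3 proteins and stay in the cytoplasm. Cyclic AMP, through protein kinase A, blocks SIKs, and calcium, through the phosphatase calcineurin, dephosphorylates CRTCs. CRTCs freed in this way enter the nucleus and join CREB, Crem or Atf1 on cAMP response elements. Sik1 is itself a gene that CREB induces after neuronal activity, and SIKs also phosphorylate the class IIa histone deacetylases. RNA levels do not report these phosphorylation steps.

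The libraries held 5.18 to 30.46 M gene counts (M, mega), and the counts per library ranged from 143 to 2041 for Sik1, from 1393 to 7027 for Sik3, from 64 to 604 for Crem and from 46 to 705 for Atf1. Under 8 M counts were cerebellum knockout 1 (6.5 M), olfactory bulb wild type 1 (7.4 M) and olfactory bulb knockout 2 (5.18 M). Cdr1as, the targeted gene, lay at 0 to 0.662 counts scaled to 1 M per library (CPM) in knockout libraries and at 364 to 4280 CPM in wild-type libraries. Summed region markers matched the labels: the lowest library of the region of origin exceeded the highest of any other region, by 3490 against 116 CPM for cerebellum markers, 636 against 258 for cortex, 1560 against 757 for hippocampus and 840 against 72.5 for olfactory bulb.

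The sequences examined here are the microRNAs that Cdr1as has sites for, and their possible sites in the 9 genes. The mature microRNAs from RefSeq are shown with the seed, bases 2 to 8 from the 5′ end, in capitals. miR-7a-5p and miR-7b-5p share a seed and differ from miR-671-5p in it.
miR-7a-5p: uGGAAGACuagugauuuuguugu
miR-7b-5p: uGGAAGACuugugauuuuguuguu
miR-671-5p: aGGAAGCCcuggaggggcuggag
The letters that pair with the miR-7 seed, GTCTTCC, occurred once in the longest annotated 3′ UTR (GENCODE, GRCm38) of Creb1 and once in that of Sik2. Those of miR-671-5p, GGCTTCC, occurred once in that of Crtc3. The windows below have the seed match in capitals.
Creb1, miR-7, base 3691 of a UTR of 7170 bases: ctgacccttttGTCTTCCtccttcaaatc
Sik2, miR-7, base 1287 of a UTR of 2524 bases: aagcacaaagcGTCTTCCttaaagcacaa
Crtc3, miR-671-5p, base 2683 of a UTR of 3116 bases: aagtggctaccGGCTTCCccagacctctc
None of the 3 was followed by A, and the other 6 genes (Sik1, Sik3, Crtc1, Crtc2, Crem and Atf1) held neither run of letters. Of 19738 genes with a UTR, 12.256% held the miR-7 letters and 12.342% the miR-671-5p letters. These matches are a description of letters, not of binding.

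The cAMP response element is written TGACGTCA in full and TGACG in its short form. RefSeq promoters (GRCm38.p6, from 250 bases before to 50 after the start) were matched for Sik2, Sik3, Crtc1, Crtc3, Creb1 and Atf1. Searched on both strands, none of these 6 windows held the full element, which 1.79% of 32851 promoters held. No promoter was matched for Sik1, Crtc2 or Crem, so those genes were not searched. The short form, which is also counted inside any full element, was in 20.812% of promoters. It occurred 3 times in Sik3, 2 times in Sik2 and once in Atf1. Sik2 is shown at the short form that begins at base -1 from its start, Sik3 at base -57 and Atf1 at base -90, each read 5′ to 3′ on the gene's strand with it in capitals.
Sik2, chr9:51009057-51009086, minus strand: gccccggcccccTGACGtcggctcacgtca
Sik3, chr9:46012751-46012780, plus strand: cgcctcccggagTGACGtctgtcggcaacc
Atf1, chr15:100227757-100227786, plus strand: gtgaccacgcggTGACGcagcacgccggcg

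The first comparison asked whether the 9 genes differ between knockout and wild type in each region. Sik1 and Sik2 were higher on average in the knockout in all 4 regions, Crtc1 was wholly higher in hippocampus and cortex, and Creb1 was lower in cortex. With p adjusted over all genes (edgeR, quasi-likelihood F-test), 0 of the 9 genes passed the threshold of 0.05 in any region. Of all genes tested, 0.00644% passed in cerebellum, 0.00634% in cortex, 0.0062% in hippocampus and 0.0253% in olfactory bulb. The one gene past the threshold in cerebellum, cortex and hippocampus was Cdr1as itself. At an unadjusted p under 0.05, edgeR placed 1 of 9 genes higher in cerebellum, where 1.25% of all genes were higher and 0.637% lower. In cortex 2 were higher and 1 was lower, beside 2.62% and 3.02% of all genes. In hippocampus 3 were higher, beside 1.95% of all genes higher and 2.06% lower, and in olfactory bulb 2 were higher, beside 1.52% and 0.91%. DESeq2 called Sik1 in cortex (log2 fold change 1.02, adjusted p = 0.00025) and none of the 9 in the other regions. Over all genes it called 35 of 24614 in cortex. The edgeR count among the 9 genes at an unadjusted p under 0.05 was 1 in cortex without knockout 3. In cerebellum that count was 2 without knockout 1, knockout 3 or wild type 1.

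**Figure D1:**
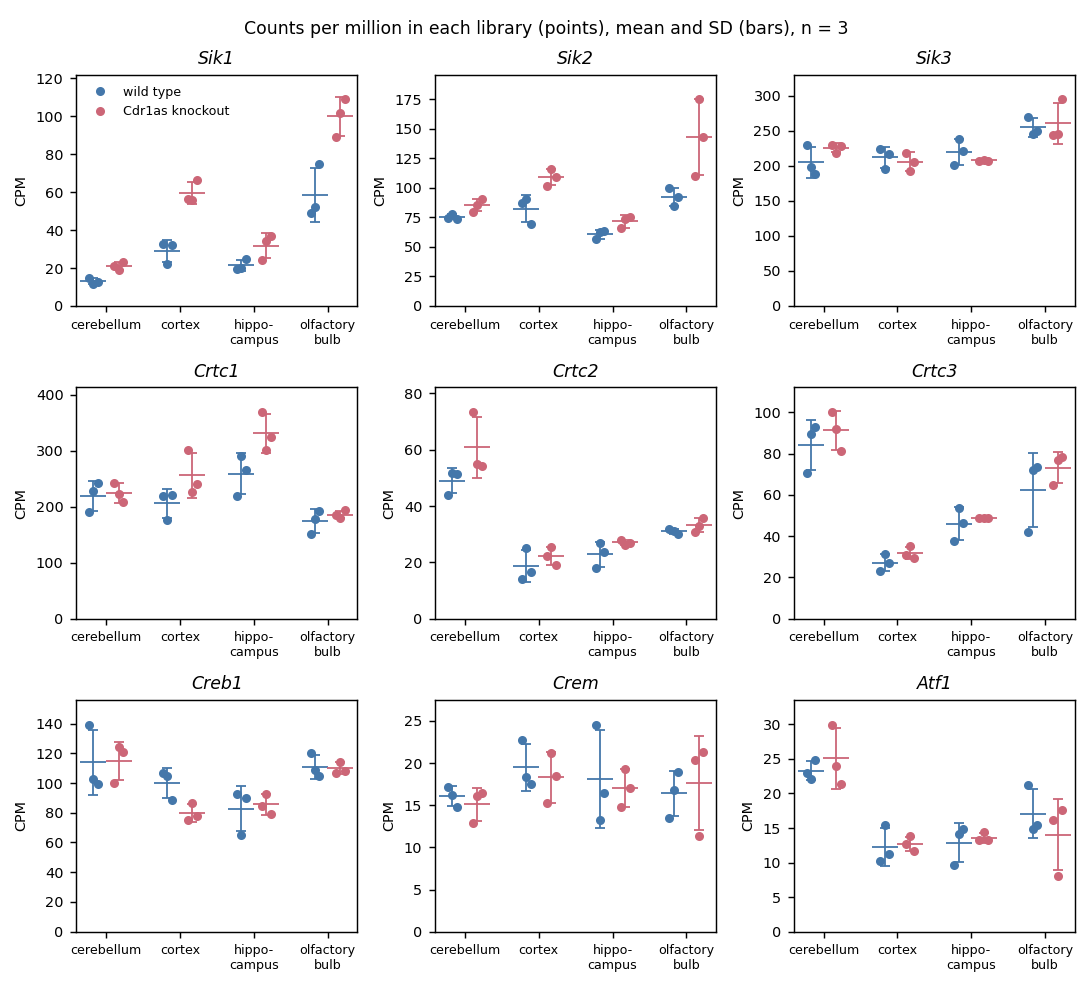
CPM (vertical axis, from 0) of each of the 9 genes in the 4 regions (horizontal axis), blue for wild type and red for Cdr1as knockout; points are libraries, horizontal bars means and vertical bars SD. Sik1 in cortex lies at 56.1 to 66.2 CPM in knockout and 22.0 to 32.5 in wild type, whereas Crem and Sik3 overlap in each region.

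Sik1, the inducible kinase of the family, lay at 56.4, 56.1 and 66.2 CPM in the 3 knockout cortex libraries and at 32.5, 22.0 and 32.3 CPM in wild type. The groups did not overlap, and the nearest libraries were knockout 2 and wild type 1. Its log2 fold change came to 1.02 (SE 0.17, n = 3 against 3, edgeR adjusted p = 0.411), a 2.02-fold difference with the 10th smallest p of 15777 genes. Same-numbered knockout and wild-type cortex libraries deviated together, so a fit that blocks on replicate number stands beside it: 1.03 with an edgeR adjusted p of 0.0054. The fit to all 24 libraries gave 1.03 (adjusted p = 0.0338), that with voom quality weights 0.97 (limma, adjusted p = 0.0204), and that with the no-feature share of the reads as covariate 1.05 (adjusted p = 0.00229). Over all genes, 1 of 15777 passed in the main fit, 30 with the block, 16 with voom weights and 57 with the covariate. With all 24 libraries 6 of 17600 passed. With any 1 cortex library left out, 0 of the 9 genes passed. The no-feature share of cortex libraries 1 to 3 was 30.5%, 53.7% and 33.6% in knockout and 20.3%, 56.2% and 34.9% in wild type. Number 2 was highest in both genotypes, so the block and the covariate are not separate checks.

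In the olfactory bulb Sik1 lay at 89.0, 102 and 109 CPM in knockout and at 48.8, 52.1 and 75.0 CPM in wild type. All knockout libraries lay above all wild-type libraries, with a log2 fold change of 0.76 (SE 0.17, edgeR adjusted p = 0.992). In cerebellum its level was lower, 20.9, 18.8 and 23.1 CPM in knockout and 14.7, 11.5 and 12.7 CPM in wild type. The groups were again apart, by a log2 fold change of 0.70 (SE 0.17, edgeR adjusted p = 0.949). In hippocampus knockout libraries had 24.3, 34.4 and 36.7 CPM and wild-type libraries 19.3, 20 and 24.8 CPM. Here knockout 1 lay below wild type 3, so the groups overlapped, with a log2 fold change of 0.58 (SE 0.18, edgeR adjusted p = 0.953). Under each alternative run, Sik1 kept its direction and an unadjusted p under 0.05 in all 4 regions.

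Sik2, a kinase of the same family with wide expression, was higher in each knockout library than in any wild-type library of its region, in all 4 regions. The olfactory bulb had the largest gap in its means: 110, 175 and 143 CPM in knockout and 100, 84.8 and 92.1 CPM in wild type. The highest value, 175 CPM, came from the shallow library knockout 2. The log2 fold change there was 0.62 (SE 0.16, edgeR adjusted p = 0.992). In cortex Sik2 lay at 102, 116 and 109 CPM in knockout and at 87.4, 90.4 and 69.5 CPM in wild type (log2 fold change 0.38, SE 0.15, adjusted p = 0.858). In hippocampus it lay at 65.7, 73.6 and 75.6 CPM against 56.4, 62.3 and 63.6 CPM, and in cerebellum at 79.9, 85.6 and 90.9 CPM against 74.6, 77.9 and 73.9 CPM. These gaps were small, with log2 fold changes of 0.24 (SE 0.11, adjusted p = 0.953) and 0.19 (SE 0.09, adjusted p = 0.949). In the annotation, 1429 of the 9539 exon bases of Sik2 overlap Ppp2r1b on the opposite strand, and the sources used here do not say whether counting used strand, so reads of the 2 genes may not be separable there.

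Without the low-count filter, edgeR called Sik1 (0.76, adjusted p = 0.00382) and Sik2 (0.62, adjusted p = 0.0327) in the olfactory bulb, and voom with quality weights called Sik1 in cerebellum (0.71, adjusted p = 0.043). Over all genes the first of these fits called 16 of 24848 and the second 33 of 15536. Sik3, the third kinase, spanned 188 to 295 CPM over the 24 libraries, and its genotypes overlapped in every region.

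Among the coactivators, Crtc1, the form known for its role in neurons, stood apart between genotypes in cortex and hippocampus. In hippocampus it lay at 369, 301 and 324 CPM in knockout and at 219, 291 and 266 CPM in wild type. The groups did not overlap, with a log2 fold change of 0.36 (SE 0.13, edgeR adjusted p = 0.953). In cortex it lay at 301, 226 and 241 CPM against 219, 177 and 222 CPM, with a gap of a few CPM between the nearest libraries (log2 fold change 0.29, SE 0.13, adjusted p = 0.858). Without knockout 1, the highest of these libraries, the cortex value was 0.18. Crtc2, a coactivator best known from liver metabolism, was apart in cerebellum alone, at 73.3, 55.0 and 54.2 CPM in knockout and 43.8, 51.8 and 51.2 CPM in wild type. Knockout 1, a shallow library, gave the highest of these values, with a log2 fold change of 0.32 (SE 0.15, adjusted p = 0.949). Without that library the Crtc2 value was 0.16, and with voom quality weights it was 0.13. Crtc3 overlapped between genotypes in each region, over a range of 23.2 to 100 CPM.

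Creb1 encodes CREB itself. In cortex it lay at 75.0, 86.3 and 78.0 CPM in knockout and at 107, 105 and 88.8 CPM in wild type. Each knockout library was below each wild-type library, with a log2 fold change of -0.35 (SE 0.14, edgeR adjusted p = 0.858). In the other 3 regions its genotypes overlapped. Crem, which yields both activators and the inducible repressor ICER, lay between 11.3 and 24.5 CPM in all libraries and overlapped in every region. Atf1, the closest relative of CREB with Crem, lay between 8.09 and 29.9 CPM and also overlapped in every region.

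Over the 36 pairs of gene and region, knockout lay wholly above wild type in 10, wholly below in 1 and overlapped in 25. By region, 3 of 9 genes were apart in cerebellum, 4 in cortex, 2 in hippocampus and 2 in olfactory bulb. Among all genes tested, 11.3%, 13.4%, 9.47% and 11.6% were apart in these regions. The median log2 fold change of the 9 genes was 0.12 in cerebellum, 0.22 in cortex, 0.09 in hippocampus and 0.09 in olfactory bulb, beside -0.04, 0.00, -0.02 and -0.01 over all genes tested.

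**Figure D2:**
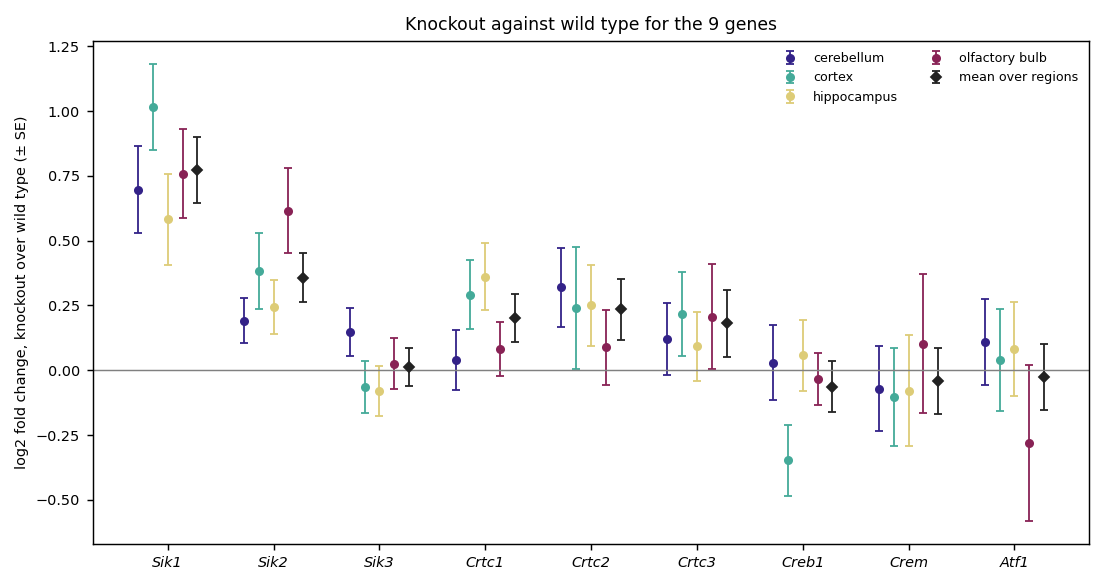
Log2 fold change of knockout over wild type (vertical axis, bars are SE) for the 9 genes (horizontal axis) in 4 regions and for the mean over regions (diamonds), with 3 libraries or means per genotype. Sik1 lies between 0.58 and 1.02 and Sik2 between 0.19 and 0.62, and Creb1 in cortex lies at -0.35.

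The second comparison averaged log2 CPM over the regions within a genotype and number, giving 3 values against 3. Sik1 was higher by a log2 fold change of 0.77 (SE 0.13, limma adjusted p = 0.142), the 10th smallest p of 17600 genes, and Sik2 by 0.36 (SE 0.09, adjusted p = 0.846). With the replicate number as a block, Sik1 had 0.77 with a limma adjusted p of 0.0273. Crtc2 had 0.23 (SE 0.12) and Crtc1 0.20 (SE 0.09), both with an adjusted p of 0.908, and Crtc2 had 0.14 without the libraries of wild type 1. After adjustment 0 of the 9 genes passed, and 0.0114% of all genes did. At an unadjusted p under 0.05, limma placed 2 higher and 0 lower, beside 1.49% and 3.56% of all genes. The median over the 9 genes was 0.18, beside -0.05 over all genes. Treating the 24 libraries as separate in edgeR called Sik1 (adjusted p = 7.37e-05) and Sik2 (adjusted p = 0.00917), a fit that takes regions of 1 animal, if shared, as independent. Without the 3 shallow libraries that fit gave 0.74 for Sik1 (adjusted p = 7.80e-04) and 0.36 for Sik2 (adjusted p = 0.0072). Over all genes, 15 of 17600 passed with the limma block, 70 of 17600 with edgeR on 24 libraries and 100 of 17935 without the shallow ones.

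Whether the knockout difference itself varied between regions was tested as an interaction over all 24 libraries. None of the 9 genes passed after adjustment, where 0.00568% of all genes did, and 0 of 9 had an unadjusted p under 0.05 in edgeR, where 1.48% of all genes did; by DESeq2 the adjusted count was also 0. Without olfactory bulb knockout 1, the lowest knockout library of that region for Sik2, 1 of 9 had one, which was Sik2. The fold changes of Sik1 and Sik2 are therefore given by region as values, with no region shown to differ from another.

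Some summed region and cell type markers lay apart between genotypes, and these sums are listed here. All other marker sums overlapped between genotypes. Among all single genes tested, 11.3% were apart in cerebellum, 13.4% in cortex, 9.47% in hippocampus and 11.6% in olfactory bulb. In cortex, where the fold change of Sik1 was the largest of its 4, the sum of 6 olfactory bulb markers was 18.6 to 19.9 CPM in knockout and 28.9 to 56.6 CPM in wild type, with 0 of 6 higher on average in knockout. The sum of 6 cerebellum markers in cortex was 25.8 to 31.3 CPM against 37.3 to 62.6 CPM, with 1 of 6 higher. Blood cell markers in cortex summed to 108 to 135 CPM against 78.0 to 107 CPM, with 3 of 6 higher. In cerebellum, olfactory bulb markers summed to 59.8 to 72.5 CPM in knockout against 24.4 to 34.6 CPM, with 4 of 6 higher. Also in cerebellum, 8 meningeal markers summed to 210 to 217 against 174 to 207 CPM with 7 of 8 higher, and 6 blood markers to 101 to 193 against 70.5 to 96.3 CPM with 5 of 6 higher. The 8 endothelial and pericyte markers there summed to 271 to 321 against 322 to 356 CPM, with 2 of 8 higher. In hippocampus its own 6 markers summed to 1860 to 2130 against 1560 to 1830 CPM, with 5 of 6 higher. Choroid plexus markers overlapped but had a wide range. The 7 of them summed in hippocampus to 33.8 to 41.2 CPM in knockout and 34.5 to 2370 CPM in wild type, with 0 of 7 higher. Their cerebellum sum was 252 to 626 CPM in knockout and 23.0 to 1110 CPM in wild type, with 1 of 7 higher. No marker of these lists was at 0 in all 6 libraries of the region named. The part of these markers in the results was not tested.

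Other genes of the route were read from 7 lists, the first of them 30 described CREB target genes. In cortex 14 of 30 were higher and 3 lower at an unadjusted p under 0.05 (edgeR), in hippocampus 12 and 2, in olfactory bulb 15 and 0, and in cerebellum 9 and 0 of the 26 measured there. Among all genes tested, 2.62% were higher and 3.02% lower in cortex, and 1.95% and 2.06% in hippocampus. The shares were 1.52% and 0.91% in olfactory bulb, and 1.25% and 0.637% in cerebellum. The median log2 fold change of the list was 0.32 in cerebellum, 0.53 in cortex, 0.21 in hippocampus and 0.68 in olfactory bulb. Over all genes tested it was -0.04, 0.00, -0.02 and -0.01. After adjustment over all genes, 1 of 30 passed in olfactory bulb, Fosb, and 1 for the mean over regions, Nr4a3. Of all genes, 0.0253% and 0.0114% passed there. Many of these genes are activity-induced genes that were already known to be higher in these libraries, so their counts are no independent evidence.

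Fosb, an activity-induced AP-1 subunit, lay in olfactory bulb at 81.9, 94.8 and 121 CPM in knockout and at 17.7, 18.0 and 29.8 CPM in wild type (log2 fold change 2.17, SE 0.23, edgeR adjusted p = 0.0167). The call was lost without knockout 3, wild type 1 or wild type 2 of that region, where the adjusted p reached 0.683, without both shallow libraries (0.558), with all 24 libraries in the fit (0.0531) and with voom quality weights (0.1). Nr4a3, an orphan nuclear receptor, lay in cerebellum at 72.0, 82.5 and 98.5 CPM against 22.7, 16.4 and 26.4 CPM (1.96, SE 0.19, adjusted p = 0.0813). Its mean over regions was 1.52 (SE 0.13, limma adjusted p = 0.00124). The clock gene Per1 had the smallest p of the list in cortex, at 215, 179 and 210 CPM against 109, 92.6 and 107 CPM (0.94, SE 0.11, adjusted p = 0.217, and 9.09e-04 with the replicate block). Junb had it in hippocampus, at 48.2, 49.2 and 63.5 CPM against 29.8, 28.7 and 30.4 CPM (0.86, SE 0.13, adjusted p = 0.411). For these 4 genes the groups did not overlap in the region named.

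The other 6 lists held no gene past the adjusted threshold in these edgeR tests. At an unadjusted p under 0.05, 1.25%, 2.62%, 1.95% and 1.52% of all genes were higher in cerebellum, cortex, hippocampus and olfactory bulb. Lower in the same order were 0.637%, 3.02%, 2.06% and 0.91%. Of 29 measured genes of cAMP and protein kinase A signalling, 0, 1, 1 and 0 were higher at an unadjusted p under 0.05 in cerebellum, cortex, hippocampus and olfactory bulb, and 0 were lower. Of 18 upstream regulators and binders of SIKs and CRTCs, such as Stk11, calcineurin subunits and 14-3-3 genes, 0 were higher in any region, and 0, 1, 1 and 1 were lower. The smallest p there was that of Cab39l, an Lkb1 scaffold, in hippocampus (log2 fold change -0.67, SE 0.21, edgeR adjusted p = 0.953). The next list held 16 kinases that phosphorylate CREB or, for Camkk1 and Camkk2, activate such kinases. In cerebellum, cortex, hippocampus and olfactory bulb, 0, 0, 1 and 1 of them were higher at an unadjusted p under 0.05. Lower in the same order of regions were 0, 1, 1 and 0. The list was led in cortex by Rps6ka6 (-0.80, SE 0.26, edgeR adjusted p = 0.858). Among AMPK-related kinases other than SIKs, 11 or 12 of which were measured, 0 had an unadjusted p under 0.05 in any region.

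The list of coactivators and deacetylases was led in both cerebellum and olfactory bulb by Hdac5, a class IIa histone deacetylase that SIKs phosphorylate. In cerebellum Hdac5 lay at 197, 185 and 199 CPM in knockout and at 153, 138 and 158 CPM in wild type (log2 fold change 0.38, SE 0.08, edgeR adjusted p = 0.949). In olfactory bulb it lay at 257, 360 and 332 CPM against 215, 209 and 237 CPM (0.51, SE 0.13, adjusted p = 0.992). Hdac5 passed in cerebellum with DESeq2 (0.38, adjusted p = 0.00757), in olfactory bulb without the low-count filter (0.52, adjusted p = 0.0192) and for the mean over regions with edgeR on 24 libraries (0.34, adjusted p = 0.0381). Over all genes these fits called 25 of 24216, 16 of 24848 and 70 of 17600. In the list of coactivators and deacetylases 1 of 11 genes was higher in cerebellum, 0 in cortex, 0 in hippocampus and 2 in olfactory bulb at an unadjusted p under 0.05, and none lower. Among all genes, 1.25%, 2.62%, 1.95% and 1.52% were higher and 0.637%, 3.02%, 2.06% and 0.91% lower in that order of regions. Of 13 other measured CREB and ATF factors, 0, 1, 0 and 1 were higher and 1, 2, 0 and 0 lower at an unadjusted p under 0.05 in cerebellum, cortex, hippocampus and olfactory bulb. One of them, Atf3, a stress- and activity-induced repressor, lay in olfactory bulb at 12.3, 18.5 and 17.6 CPM against 1.63, 1.24 and 2.96 CPM. Its log2 fold change was 3.05 (SE 0.40, edgeR adjusted p = 0.0673), and over the alternatives its adjusted p ranged from 7.98e-10 to 0.998.

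**Figure D3:**
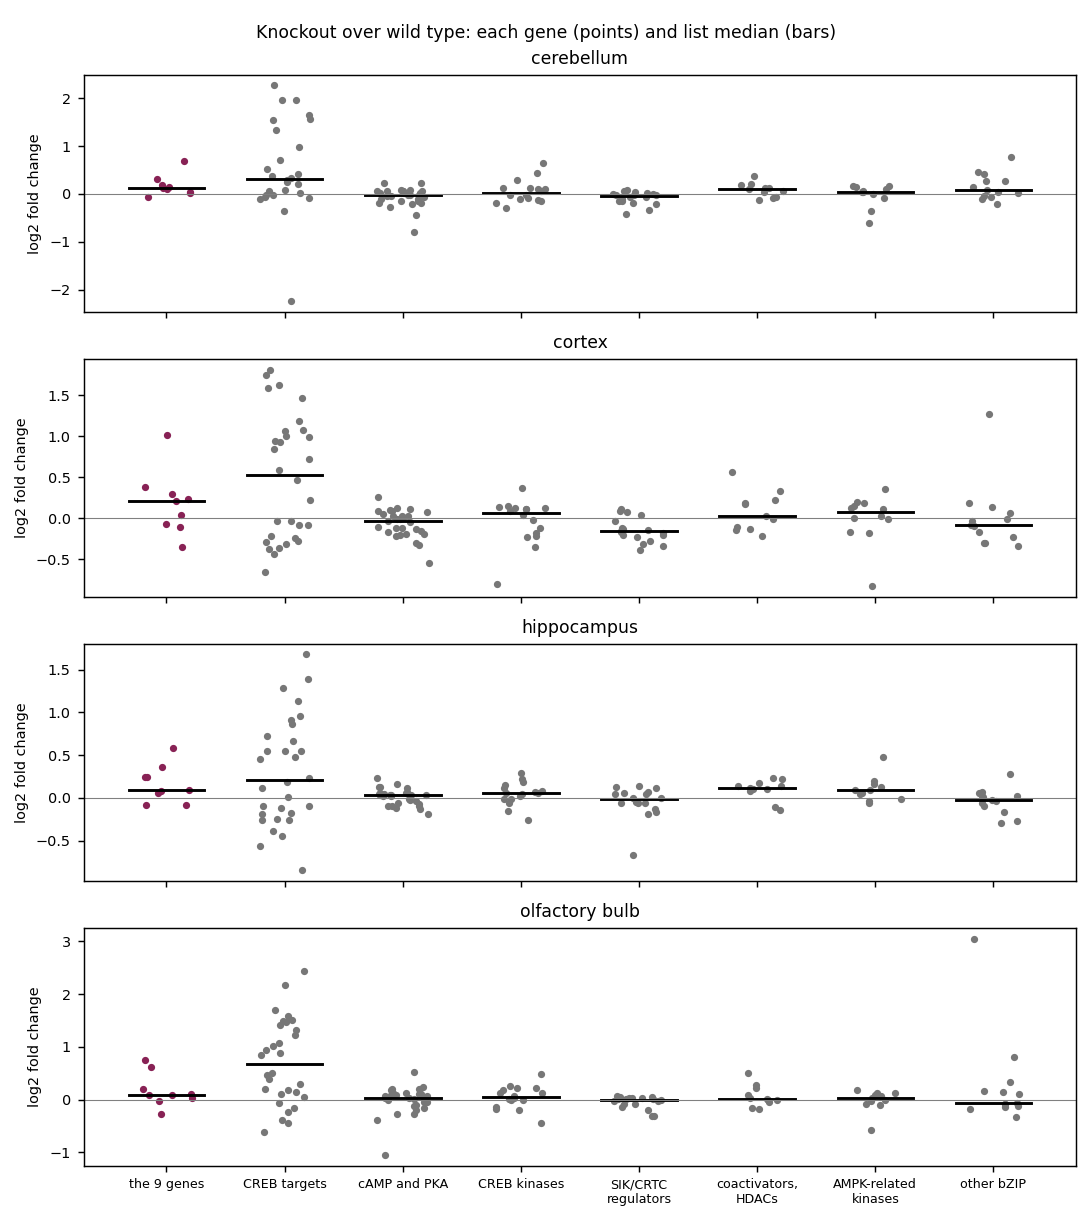
Log2 fold change of knockout over wild type (vertical axes, scales differ between regions) for each gene (points) of the 9 genes and 7 lists (horizontal axis) in 4 regions, with black bars for list medians. The medians of the CREB target list are 0.32, 0.53, 0.21 and 0.68 from top to bottom, and the points of the other lists cluster near 0 apart from single genes such as Atf3 in olfactory bulb at 3.05.

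The third comparison asked how the 9 genes differ between regions in wild type. Sik1 was lowest in cerebellum and highest in olfactory bulb, and Crtc2 was highest in cerebellum. Crtc3 and Atf1 were higher in cerebellum than in cortex and hippocampus, and neither passed between cerebellum and olfactory bulb (edgeR adjusted p = 0.158 and 0.118). Sik2 was lowest in hippocampus. Creb1 was lower there than in cerebellum and olfactory bulb, and did not pass against cortex (adjusted p = 0.274). Crem did not pass for any pair of regions. After adjustment (edgeR on the 12 wild-type libraries), 4 of 9 genes differed between cerebellum and cortex, where 46.7% of all genes did. The counts were 6 between cerebellum and hippocampus (42.1% of all genes), 3 between cerebellum and olfactory bulb (36.6%), 2 between cortex and hippocampus (9.77%), 3 between cortex and olfactory bulb (38.3%) and 4 between hippocampus and olfactory bulb (33.8%). These 22 calls are all given below, with the 11 that were lost under at least 1 alternative, and no other pair of regions passed.

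Sik1 averaged 13.0 ± 1.61 CPM (SD, n = 3) in cerebellum, 21.4 ± 2.98 in hippocampus, 28.9 ± 5.97 in cortex and 58.7 ± 14.3 in olfactory bulb. The step from cerebellum to olfactory bulb was a log2 difference of 2.19 (SE 0.21, adjusted p = 9.58e-07), a 4.56-fold range. Olfactory bulb exceeded cortex by 1.03 (SE 0.20, adjusted p = 0.00104) and hippocampus by 1.49 (SE 0.20, adjusted p = 5.14e-05). Cortex exceeded cerebellum by 1.16 (SE 0.20, adjusted p = 3.36e-04), and hippocampus exceeded cerebellum by 0.69 (SE 0.20, adjusted p = 0.013). That last call was lost without cerebellum wild type 2 or hippocampus wild type 3 (adjusted p up to 0.0597). Cortex and hippocampus, neighbours in this order, did not differ past the threshold.

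Sik2 averaged 60.8 ± 3.83 CPM in hippocampus, 75.5 ± 2.13 in cerebellum, 82.4 ± 11.3 in cortex and 92.3 ± 7.67 in olfactory bulb. Olfactory bulb exceeded hippocampus by a log2 difference of 0.64 (SE 0.12, edgeR adjusted p = 9.95e-04). Hippocampus was below cortex by -0.46 (adjusted p = 0.0269) and below cerebellum by -0.33 (adjusted p = 0.038). The cortex call was lost without cortex wild type 1 or any 1 of the hippocampus libraries (adjusted p up to 0.0906), and the cerebellum call without any 1 of the 6 libraries (up to 0.117), without the filter (0.0707) and with the no-feature covariate (0.0575). Sik3 was higher in olfactory bulb than in cerebellum by 0.33 (SE 0.11, adjusted p = 0.0341), a call kept without cerebellum wild type 1 and lost without any other library of the pair (up to 0.169) and without the filter (0.104).

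Crtc3 averaged 84.3 ± 12.1 CPM in cerebellum, 62.5 ± 17.9 in olfactory bulb, 46.1 ± 7.84 in hippocampus and 27.2 ± 4.20 in cortex. Cortex was below cerebellum by a log2 difference of -1.64 (SE 0.22, edgeR adjusted p = 3.07e-05), and hippocampus by -0.89 (SE 0.21, adjusted p = 0.00384). Olfactory bulb exceeded cortex by 1.23 (SE 0.22, adjusted p = 5.62e-04). The hippocampus exceeded cortex by 0.75 (adjusted p = 0.0437), which was lost without cortex wild type 1 or 3 or hippocampus wild type 2 or 3 (up to 0.162), and with the no-feature share of the reads as covariate (0.57, adjusted p = 0.0863).

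Crtc2 followed the same order, at 48.9 ± 4.43 CPM in cerebellum, 31.0 ± 1.02 in olfactory bulb, 22.9 ± 4.48 in hippocampus and 18.7 ± 5.69 in cortex. Cortex was below cerebellum by -1.40 (SE 0.20, edgeR adjusted p = 6.11e-05; -0.93 with the no-feature covariate), hippocampus by -1.12 (SE 0.20, adjusted p = 4.05e-04) and olfactory bulb by -0.64 (SE 0.20, adjusted p = 0.0193). The last was lost without cerebellum or olfactory bulb wild type 2 or 3 (up to 0.0575). Olfactory bulb exceeded cortex by 0.76 (adjusted p = 0.00915), and by 0.20 (adjusted p = 0.434) when the no-feature share of the reads was a covariate. That share correlated with the deviations of Crtc2 from its 8 group means at r = 0.79 over the 24 libraries. For Crtc3 r was 0.57, for Sik2 0.37, for Sik1 -0.35 and for Atf1 0.34. For Sik3 it was -0.30, for Crtc1 -0.25, for Crem -0.24 and for Creb1 0.01. It is a property of the library that ranged from 20.3% to 62.9%, and its part in these results was not tested beyond that covariate.

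Crtc1 had another order, 259 ± 36.7 CPM in hippocampus, 220 ± 27.0 in cerebellum, 206 ± 25.2 in cortex and 175 ± 21.1 in olfactory bulb. One pair passed, olfactory bulb below hippocampus by -0.53 (SE 0.15, edgeR adjusted p = 0.0146), and it was lost without olfactory bulb wild type 1 or hippocampus wild type 2 (up to 0.0632). Creb1 averaged 114 ± 21.8 CPM in cerebellum, 111 ± 8.10 in olfactory bulb, 100 ± 10.1 in cortex and 82.6 ± 15.2 in hippocampus. Hippocampus was below cerebellum by a log2 difference of -0.49 (adjusted p = 0.0188), olfactory bulb exceeded hippocampus by 0.47 (adjusted p = 0.0285), and both calls depended on single libraries. The first was lost without cerebellum wild type 1 (-0.32, adjusted p = 0.112) or hippocampus wild type 2 (0.09), and the second without olfactory bulb wild type 1 or 2 or hippocampus wild type 2 (up to 0.134).

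Atf1 averaged 23.3 ± 1.39 CPM in cerebellum, 17.1 ± 3.53 in olfactory bulb, 12.9 ± 2.83 in hippocampus and 12.3 ± 2.74 in cortex. Cortex was below cerebellum by -0.94 (SE 0.21, edgeR adjusted p = 0.00228) and hippocampus by -0.87 (SE 0.21, adjusted p = 0.00385). The cortex value was -0.56 (adjusted p = 0.0585) with the no-feature share as a covariate. The 4 wild-type means of Crem lay between 16.1 and 19.5 CPM.

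**Figure D4:**
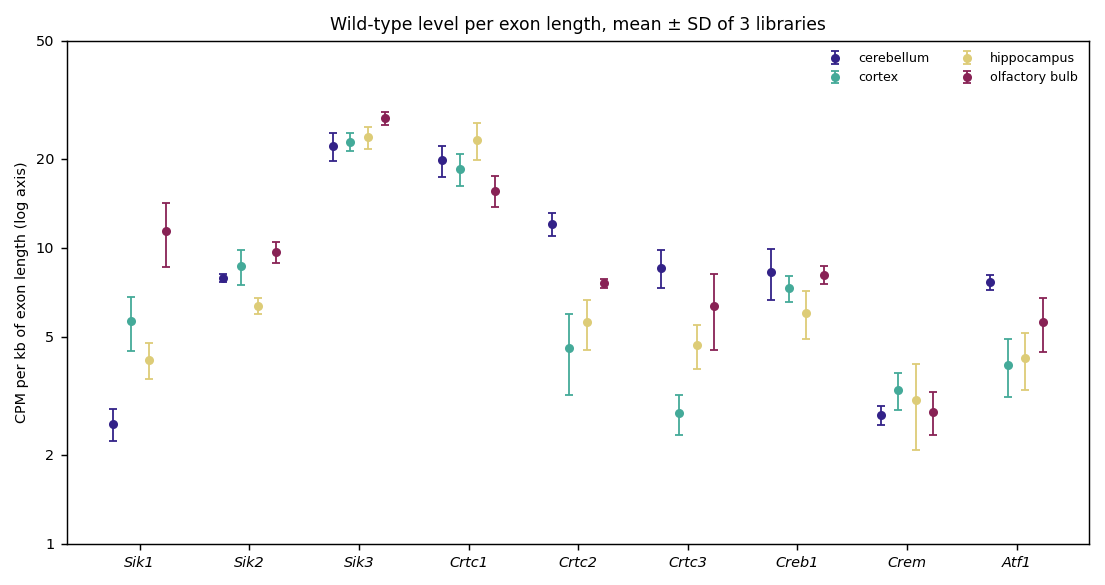
Wild-type level of the 9 genes (horizontal axis) as CPM per kb of exon length (vertical axis, log scale) in 4 regions, with points for means and bars for SD of 3 libraries. Sik3 and Crtc1 lie highest in each region, at 15.6 to 27.4 CPM per kb, and Sik1 ranges from 2.53 in cerebellum to 11.4 in olfactory bulb.

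Between genes, levels were compared as CPM per kb of exon length. Sik3 was the highest of the 9 in every region, from 22.0 ± 2.33 CPM per kb in cerebellum to 27.4 ± 1.43 in olfactory bulb (SD, n = 3). Crtc1 was next in each, from 15.6 ± 1.89 in olfactory bulb to 23.1 ± 3.28 in hippocampus. Its libraries overlapped those of Sik3 in hippocampus (19.6 to 26.0 against 21.6 to 25.6) and in cerebellum (17.0 to 21.7 against 20.2 to 24.7). Among the kinases Sik1 was the lowest in cerebellum, at 2.53 ± 0.314 beside 7.91 ± 0.224 for Sik2. In olfactory bulb Sik1 reached 11.4 ± 2.79 beside 9.68 ± 0.804 for Sik2, and their libraries overlapped (9.51 to 14.6 against 8.89 to 10.5). Crtc2, at 12 ± 1.08, was behind Sik3 and Crtc1 in cerebellum, and Crtc3 was last in cortex at 2.76 ± 0.426. Of the factors, Creb1 exceeded Crem in each region, by 8.27 ± 1.59 against 2.72 ± 0.196 in cerebellum and 6.01 ± 1.11 against 3.06 ± 0.99 in hippocampus. These orders carry no test, and exon lengths come from a later annotation than the counts.

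Likeness was described by Pearson correlations of log2 CPM over the 24 libraries among 13208 genes, which share libraries and depth and follow region first. Mycn (r = 0.92) and Trim9 (r = 0.90) were most like Sik1, and Cpeb3 (r = 0.90) was most like Sik2. Sbf1 (r = 0.90) led for Crtc1, Mfsd2b (r = 0.97) for Crtc3, Atp11a (r = 0.96) for Crtc2 and Xiap (r = 0.94) for Creb1. Fyn (r = 0.83) led for Sik3, Ercc8 (r = 0.93) for Atf1 and Ptcd2 (r = 0.78) for Crem. Among the 9 genes, Crtc2 and Crtc3 were most alike (r = 0.90), then Crtc2 and Atf1 (r = 0.85) and Sik1 and Sik2 (r = 0.76). Over the same libraries the no-feature share of the reads had r = 0.79 with Crtc3, 0.74 with Crtc2 and 0.54 with Atf1. With Sik1 and Sik2 that share had r = -0.02 and 0.20. Its part in these likenesses was not tested.

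With each of the 8 group means removed, the correlations describe variation between libraries of 1 region and genotype. The gene most like Sik1 was then Arc (r = 0.83), an activity-induced synaptic gene that is also in the CREB target list, followed by Cds1 (r = 0.79). For Sik2 the first was Acer2 (r = 0.83), and Sik1 and Sik2 themselves had r = 0.13. Rapgefl1 (r = 0.91) led for Crtc1, Tle2 (r = 0.96) for Crtc3, Fubp3 (r = 0.95) for Crtc2 and Uba6 (r = 0.91) for Creb1. Atxn1 (r = 0.81) led for Sik3, Podn (r = 0.95) for Atf1 and Coq10b (r = 0.91) for Crem. Each of these is the highest r among 13208 genes. Those highest values ran from 0.81 for Sik3 to 0.96 for Crtc3, and what lies behind any pairing was not tested. Crtc1 and Creb1 moved in opposite senses within groups (r = -0.73), as they did over the 24 libraries (r = -0.73). Within groups Crtc2 had r = 0.59 with Crtc3 and 0.59 with Atf1.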

How the data were processed

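Total RNA was extracted with TRIzol and depleted of ribosomal RNA by RNase H before a stranded library kit, per the labels' protocols. The submitters' processing notes name bcl2fastq 2.17.1.14, STAR 2.5.1b, HTSeq 0.6.1p1 and mm9; no settings, and no strand option for the counting, are stated there. The authors deposited raw read counts per gene, 1 table per library. The 5 summary entries were left out; reads in no feature made up 20.3% to 62.9%. Names, exon lengths and 3′ UTRs came from GENCODE for GRCm38, so no coordinates of the counted genes are given; 32898 entries, with 98.56% of counts, were named. CPM use TMM over the 24 libraries.

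Each region was tested with edgeR 4.0.16 in R 4.3.3 (quasi-likelihood F-test, TMM, filterByExpr at a minimum count of 10), the mean over regions with limma 3.58.1 on log2 CPM (prior count 2), and DESeq2 1.42.0 was an alternative. Tests are two-sided with Benjamini-Hochberg adjustment over all genes tested and a threshold of 0.05. The fits were also run on simulated counts with the same fixed spread for every gene and independent libraries. The wild-type run there set a region against the rest rather than pairs. Those runs do not cover the spread of the present libraries. SE is the log2 fold change divided by the square root of F. Other alternatives changed scaling, filter, weights, covariates or left out libraries; those on shallow libraries were chosen after seeing the data.

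The 9 genes and the lists were chosen with earlier results of these data known. Their ranks by p and their counts beside all genes are therefore no independent evidence. Named besides the 9 were the list gene with the smallest p in a region, those past the threshold, and the most correlated genes with mean log2 CPM of at least 1; the text gives some of these. Nothing in the labels ties replicates to separate animals. The p-values then cover only the spread between these libraries, which may be technical. Nor do the labels say what a replicate number marks. Same-numbered knockout and wild-type libraries deviated together in cortex (r = 0.252 to 0.648 across genes) and for the mean over regions (0.149 to 0.247), and wild-type cerebellum and cortex did too (0.422 to 0.467). Elsewhere at least 1 pair was under 0.1. No 2 libraries of a group agreed within sampling noise.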

Additional observations from a re-analysis of the deposited data

How the results depend on the processing

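Of the 45 knockout log2 fold changes (9 genes, 4 regions and the mean over regions), the 16 with an unadjusted p under 0.1 kept their sign under each alternative run; of the other 29, which lay between -0.28 and 0.25, 21 changed sign under at least 1. Sik1 ranged over 0.63 to 0.79 in cerebellum, 0.87 to 1.11 in cortex, 0.46 to 0.75 in hippocampus, 0.64 to 0.97 in olfactory bulb and 0.68 to 0.87 for the mean. Members past the adjusted threshold, 0 in the main tests, numbered 1 in cerebellum with voom weights, 1 in cortex with DESeq2, the replicate block, all 24 libraries, voom weights or the no-feature covariate, 2 in olfactory bulb without the filter, and for the mean 1 with the replicate block and 2 with edgeR on 24 or on the 21 deeper libraries. Over all genes, those past it went in cerebellum from 1 to 33 with voom weights. In cortex 1 gene passed in the main test, 35 with DESeq2 and 30 with the replicate block. There 6 passed with all 24 libraries, 16 with voom weights and 57 with the no-feature covariate. In olfactory bulb they went from 4 to 16 without the filter. For the mean they went from 2 to 15 with the block, and to 70 and 100 with edgeR on 24 and 21 libraries. Counts at an unadjusted p under 0.05 went in cerebellum from 1 to 2 (DESeq2, no filter, minimum count of 30) or 4 (voom weights), and for the mean from 2 to 4 (edgeR on 24 or 21 libraries). Over all genes, 293 of 15536 had such a p in the main cerebellum test and 1172 of 15536 with voom weights. With DESeq2 it was 585 of 24216, without the filter 527 of 24216 and at a minimum count of 30 288 of 13463. For the mean the all-gene count went from 890 of 17600 to 1550 of 17600 and 1843 of 17935 on 24 and 21 libraries. With 1 library left out the member counts ranged over 1 to 2 in cerebellum, 1 to 4 in cortex and 0 to 1 for the interaction. Among the 9, wild-type calls between cerebellum and olfactory bulb numbered 5 with the no-feature covariate and 1 to 3 with 1 library left out. Between cortex and hippocampus they numbered 1 and 0 to 3. With that covariate 7448 and 2274 of 16995 genes passed for these pairs, beside 6216 and 1661 in the main fit. The cause was not tested. CREB targets higher at an unadjusted p under 0.05 ranged over 7 to 13 in cerebellum, 13 to 17 in cortex, 9 to 14 in hippocampus and 12 to 19 in olfactory bulb.

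With the replicate block, the knockout values of Sik1 were 0.70 in cerebellum, 0.57 in hippocampus and 0.78 in olfactory bulb (edgeR adjusted p = 0.914, 0.992 and 0.16), regions in which same-numbered libraries did not deviate together throughout. The block ended none of the 22 wild-type calls. Crem and Atf1 had as few as 64 and 46 counts in a library.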
